A study of Mus musculus with 2 samples.

Results

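The models described here are transcripts of mouse hippocampus that combine annotated splice sites as no annotated transcript does. All were read in both libraries of the study. They were chosen by their class and their read counts: a model had to carry the class NIC (the TALON name for an unlisted combination of annotated sites) in both deposited tables, with the same chromosome, strand and exact chain of introns, and at least 5 reads in each library. This gave 1003 combinations in 748 genes, of 92793 spliced chains of the annotated, NIC and NNC classes (NNC models have an unannotated splice site) found in either library. The counts therefore fixed which combinations are listed, and their counts and shares are given as a description.

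The tissue is labelled as a layer of hippocampus and came from 2-month-old female B6CASTF1/J mice, which are F1 hybrids between the strains C57BL/6J and CAST/EiJ. There is 1 group with 2 libraries, biological replicates 1 and 2, each made from 2 µg of RNA and sequenced in long reads that can span a whole cDNA. No treatment or control group is given, so no comparison between conditions was possible. The labels give both libraries the same donor identifier and their descriptions name different females, so the spread between the libraries may be technical.

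Splicing joins exons by cutting at a donor site at the end of each exon and an acceptor site at the start of the next, and most mammalian genes use more than a single set of sites. Brain is known for many such choices, among them very short exons kept mainly in neurons and acceptor sites a codon apart. An annotation lists the full transcripts that have been described, so choices that lie far apart in a long transcript can each be listed without ever being listed together in the same transcript. A read that covers the whole transcript shows which choices were made together.

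Coding exons and splice junctions of combinations with many reads are shown first. These letters are what differs from the most read annotated model of the gene, or for Oaz1 and Oaz2 from the closest annotated transcript. They can be part of another annotated transcript. The Pls3 combination differed from Pls3-203 only by further exons upstream, and the Tpm3 combination from Tpm3-202 only by a skipped exon. All sequences are from GENCODE M21 transcripts on mm10, and are written 5′ to 3′ on the strand of the gene. In the antizyme genes Oaz1 (chr10:80828292-80828295, plus strand) and Oaz2 (chr9:65686269-65686272, plus strand), the capitals mark 4 bases that the closest annotated transcript leaves out as an intron of 4 bases and that the combination keeps, with 24 bases on either side.
Oaz1: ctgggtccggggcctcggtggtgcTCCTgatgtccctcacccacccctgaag
Oaz2: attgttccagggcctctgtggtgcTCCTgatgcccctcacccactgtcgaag

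Acceptor pairs 3 bases apart are shown as the longer form, with the last 15 bases of the exon before, the 3 optional bases in capitals and the next 15 bases. The optional bases lie at chr1:37612397-37612399 (minus strand) in 2010300C02Rik, chr11:120479087-120479089 (plus) in Hgs, chr8:13931182-13931184 (plus) in Fbxo25 and chr13:55474559-55474561 (minus) in Dbn1. The combination keeps them in 2010300C02Rik, Fbxo25 and Dbn1, and lacks them in Hgs; Fbxo25 and Dbn1 were chosen after their values were seen.
2010300C02Rik: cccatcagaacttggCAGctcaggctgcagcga
Hgs: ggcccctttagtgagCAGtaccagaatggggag
Fbxo25: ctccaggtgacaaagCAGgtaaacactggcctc
Dbn1: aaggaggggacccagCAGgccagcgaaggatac

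Whole exons that the combination adds are shown for Pls3 (chrX:75799717-75799743, minus strand) and Trappc9 (chr15:73042177-73042203, minus), each 27 bases long and wholly coding. Exons that the combination skips are shown for Camk2b (chr11:5981070-5981114, minus, 45 bases) and Cttn (chr7:144452027-144452137, minus, 111 bases). Capitals mark the exon between 15 bases of each neighbouring exon.
Pls3: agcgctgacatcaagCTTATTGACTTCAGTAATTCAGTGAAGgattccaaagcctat
Trappc9: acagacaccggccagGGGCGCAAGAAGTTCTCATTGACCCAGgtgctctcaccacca
Camk2b: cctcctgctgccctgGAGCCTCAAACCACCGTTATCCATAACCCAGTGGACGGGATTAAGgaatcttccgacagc
Cttn: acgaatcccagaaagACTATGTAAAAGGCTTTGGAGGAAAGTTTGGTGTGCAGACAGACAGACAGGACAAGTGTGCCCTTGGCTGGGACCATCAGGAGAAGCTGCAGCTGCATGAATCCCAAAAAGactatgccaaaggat

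A pair of exons used in place of each other is shown for Tpm3, 76 bases each, with capitals where the pair differs. The Tpm3 combination has the exon at chr3:90089048-90089123 and the compared model that at chr3:90088401-90088476, both on the plus strand.
Tpm3 in the combination: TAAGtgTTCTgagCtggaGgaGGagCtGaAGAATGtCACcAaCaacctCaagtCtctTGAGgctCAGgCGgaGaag
Tpm3 in the compared model: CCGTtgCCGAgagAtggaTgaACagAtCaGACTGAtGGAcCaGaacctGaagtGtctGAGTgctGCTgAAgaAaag

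The tables held 836240 reads in replicate 1 and 752291 in replicate 2, of which 553207 and 492034 were full-splice reads, meaning reads of annotated (Known), NIC or NNC models. The combinations took 18986 and 17398 reads, 3.43% and 3.54% of the full-splice reads. They also took 36.2% and 37.3% of all NIC reads. In all, 36715 NIC chains were seen in either library and 6912 in both. Reads summed over the neuron markers stood at 5422 and 5458 CPM (read counts scaled to the library total without spike-ins), over the pyramidal and granule neuron markers at 5969 and 5875, and over the astrocyte markers at 4820 and 4993. Markers of oligodendrocytes summed to 2603 and 2840, of microglia to 480.3 and 548.6, of endothelium to 300 and 233.4, of inhibitory neurons to 552.9 and 558 and of choroid plexus to 338.7 and 185.1 CPM, with no reads in either library for Aqp1 and Otx2 of the choroid plexus.

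Most combinations had few reads. The median was 11 reads in replicate 1 and 10 in replicate 2, 435 had at least 10 in each library and 17 at least 100 in each. Just inside the threshold, 194 had exactly 5 reads in a library and 38 had 5 in both. Just outside, 278 NIC chains shared by the libraries had 4 reads in the lower of the libraries, 57 of them 4 in both. Of the combinations, 997 lay in protein-coding genes, and they had from 2 to 49 exons with a median of 12. The 1332 annotated models that reached the same 5 reads per library without being the most read of their gene, called Known minor models here, had a median of 8 exons.

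Every intron of 813 combinations (81.1%) was annotated, so only the set of introns found together was new. The other 190 had an intron absent from the annotation, 178 of them a single such intron. In 133 of the 190 that intron was also read in other models of both libraries, and in 27 in no other model. Despite their class, 57 combinations used a splice site that GENCODE M21 does not hold, in the best read case a combination of Hnrnpk.

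How often a chain read in one library was read in the other is given by class, as counts with no test. Of 1578 NIC chains with at least 5 reads in replicate 1, 1441 (91.3%) were read as NIC in replicate 2, 71 were read there under another class and 66 were in none of its full-splice models. Of 463 NNC chains chosen in the same way, 356 (76.9%) were read as NNC, 81 under another class and 26 in no full-splice model, so the class given to a chain often differed between the tables. Of 9419 annotated chains, 9355 (99.3%) were read and 64 were not. Chosen in replicate 2 and looked up in replicate 1, 1354 of 1460 NIC chains kept their class, 55 had another and 51 were absent, and of 413 NNC chains the counts were 310, 80 and 23. With 5 reads asked of replicate 2 as well, the shares under the same class were 63.6% for NIC, 49.7% for NNC and 87.4% for annotated chains. The classes differ in how many reads their chains have, and among chains with 5 to 9 reads in replicate 1 these shares were 45.6%, 33.1% and 61.2% in the same order of classes.

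The combination with the most reads was that of Oaz1, antizyme 1, which binds ornithine decarboxylase and limits polyamine synthesis. It had 612 reads in replicate 1 and 528 in replicate 2, 95.8% and 96.7% of the full-splice reads of the gene. The exact 95% Clopper-Pearson intervals were 93.9 to 97.2% and 94.8 to 98.0%, and they overlapped. Oaz2, antizyme 2, had 225 and 192 reads, 91.8% and 92.8% of the gene (intervals 87.7 to 94.9% and 88.3 to 95.9%). Antizyme mRNAs are known for a ribosomal frameshift at an internal stop codon, and in both sequences above the 4 kept bases run into the letters TGA. Each of these combinations differed from the closest annotated transcript, Oaz1-201 and Oaz2-201, by the 4 bases alone. The annotation holds 353 introns under 20 bases, and 6 combinations in 4 genes read through such an intron, 3 of them differing by nothing else. The other genes were Dmtn, an actin-binding protein of the cell cortex (80 and 68 reads, 2 bases), and Nadk2, a mitochondrial NAD kinase (48 and 48 reads, 1 base). The sources used here do not give the aligner or its shortest intron, and their part in these counts was not tested.

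Cpne6, copine 6, a calcium-dependent membrane-binding protein of neurons, had 620 and 461 reads in a combination that held 47.4% and 46.7% of the gene. It differed from the most read annotated model, Cpne6-201 with 360 and 283 reads, by an acceptor 23 bases away, outside the annotated coding sequence. Over all full-splice chains that used either site, the acceptor of the combination took 765 of 1166 reads in replicate 1 and 578 of 900 in replicate 2. Apbb1, an adaptor that binds the tail of the amyloid precursor protein, had 328 and 281 reads, 62.8% and 64.0% of the gene, against 58 and 44 reads of Apbb1-214, the most read annotated model. Its acceptor lay 6 coding bases upstream. Against Apbb1-201, the closest annotated transcript, it differed only by further exons upstream. In both genes the combination had more reads than the most read annotated model in both libraries.

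Over the 902 combinations in 652 genes that had 20 or more full-splice reads per library, the median share was 14.7%, with quartiles of 7.42% and 26.0%. The median was 14.0% in replicate 1 and 14.8% in replicate 2. For the 1262 Known minor models of such genes it was 17.6%, but a Known minor model cannot be the most read annotated model, which caps its share. At least 10% of the gene was reached in both libraries by 528 combinations and at least 50% by 65. In 99 of the 652 genes the combinations together held at least 50% in both libraries. Of 955 combinations that could be set against the most read annotated model of the gene, 291 had more reads than it in both libraries.

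**Figure D1:**
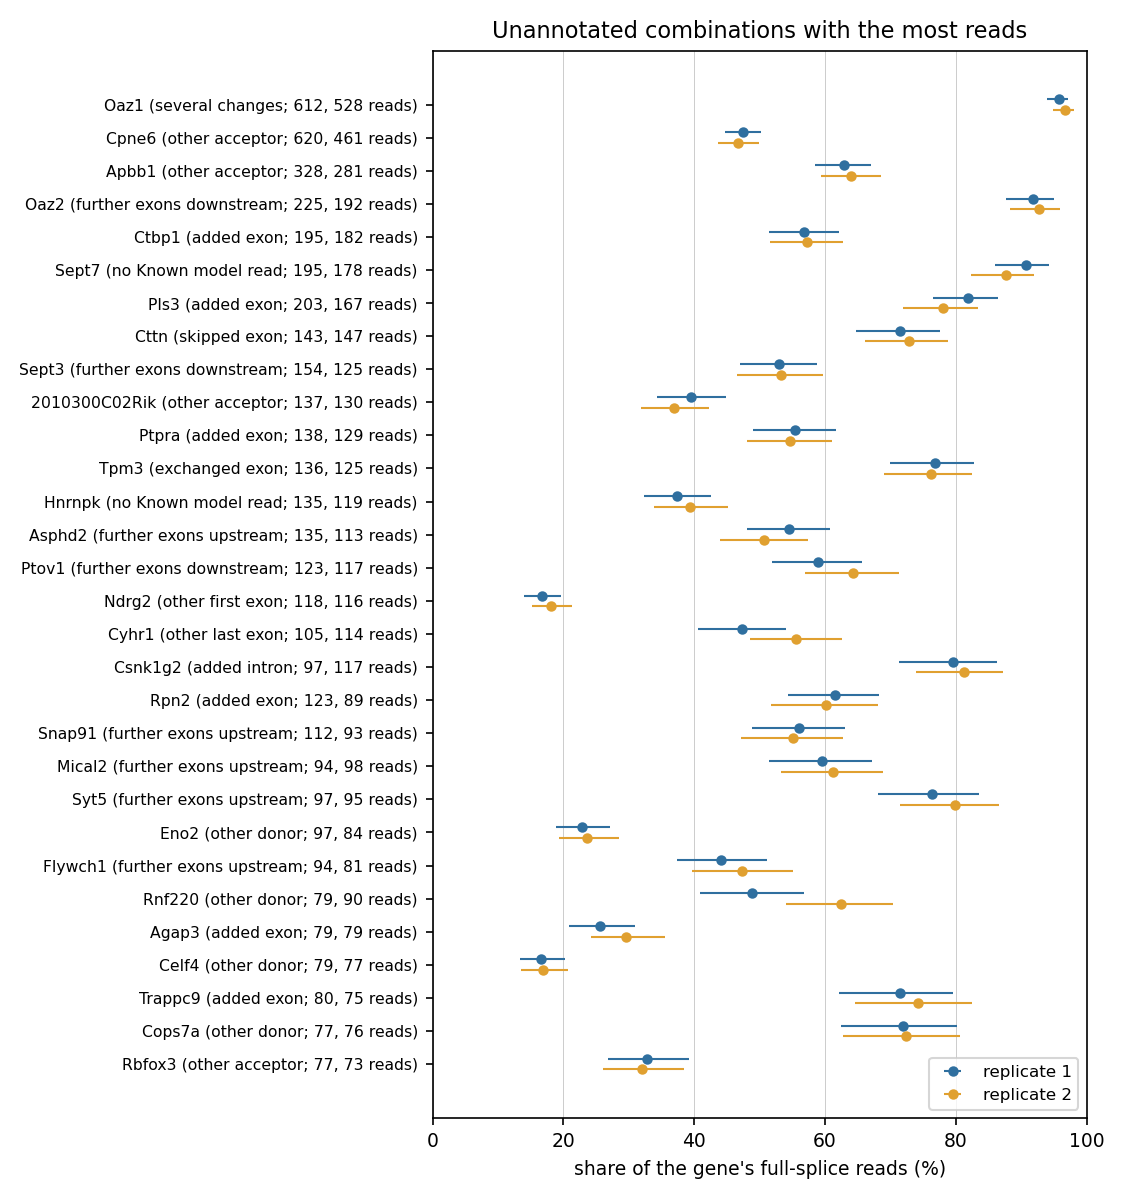
Share of the gene's full-splice reads (%, horizontal axis) in replicate 1 (blue) and replicate 2 (orange) for the 30 named combinations with the most reads, in genes of 20 or more full-splice reads per library. Bars are exact 95% Clopper-Pearson intervals for counting error only, and the intervals of the libraries overlapped for every combination shown.

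High shares were found in genes of several kinds. Jakmip1, which binds GABA-B receptors and microtubules, had 64 and 65 reads, 97.0% and 95.6% of the gene, and no annotated model of it was read. Phb2, a prohibitin of the inner mitochondrial membrane, had 51 and 55 reads (94.4% and 91.7%), also with no annotated model read. Sept7, the core septin of the septin filament, had 195 and 178 reads (90.7% and 87.7%) and again no annotated model. The Sept7 combination skips an exon of Sept7-201, and the intron this makes is unannotated and was in 13 and 12 reads of other models. Smap1, an ARF GTPase-activating protein, had 57 and 45 reads (93.4% and 86.5%) with an added exon of 81 bases, and Uchl3, a ubiquitin hydrolase, 54 and 47 reads (84.4% and 88.7%) beside 1 and 0 of Uchl3-203, with which it shares no splice site. Ldah, a lipid droplet hydrolase, had 32 and 27 reads (86.5% and 84.4%) with a donor 12 bases away outside the coding sequence, and Map4k5, a kinase of stress signalling, 27 and 37 reads (81.8% and 88.1%) with an unannotated intron.

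The difference from the most read annotated model was a single change in 795 of the 955 (83.2%). Skipped exons numbered 134 (14.0%), other acceptors 123 (12.9%), other first exons 116 (12.1%), added exons 110 (11.5%), other donors 95 (9.95%) and retained introns 85 (8.90%). Further exons upstream were found in 58, further exons downstream in 24, another last exon in 12, an exchanged exon in 4, an added intron in 2 and a mixed change within the gene in 32. Several changes at once were found in 145 (15.2%) and no shared splice site in 15. A further 43 combinations lay in genes with no annotated model read, and for 5 the tables gave the chain to different genes. The compared model was itself thinly read in 147 cases, with under 5 reads in each library.

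**Figure D2:**
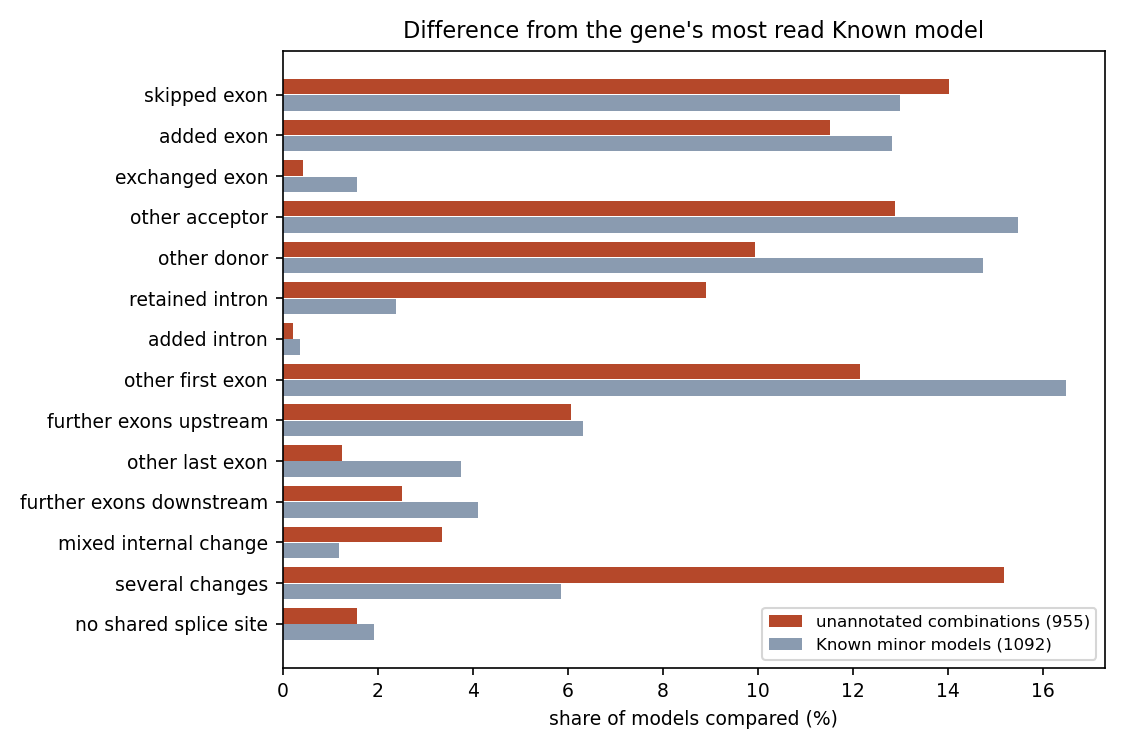
Share of models (%, horizontal axis) by how they differ from the most read annotated model of their gene, for 955 unannotated combinations (red) and 1092 Known minor models (grey). Retained introns and several changes took larger shares of the combinations, 8.90% and 15.2%, than of the Known minor models, 2.38% and 5.86%.

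The same sorting of the Known minor models leaves 1092, once chains that only start at a later exon or end at an earlier one are left out, since TALON counts such a chain as incomplete and not as NIC. Retained introns made up 8.90% of the combinations against 2.38% of the Known minor models, and several changes 15.2% against 5.86%. Other donors (9.95% against 14.7%), other first exons (12.1% against 16.5%) and exchanged exons (0.419% against 1.56%) took smaller shares of the combinations. Skipped exons (14.0% against 13.0%), added exons (11.5% against 12.8%) and other acceptors (12.9% against 15.5%) lay close together. Set against the closest annotated transcript instead of the most read one, the share with several changes was 9.42%.

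Skipped exons had a median length of 90 bases, and 130 of the 147 exons were coding. A multiple of 3 was found for 82 of the 147 (55.8%), against 67.5% in the Known minor models. In 56 of the 134 combinations the skip made an unannotated intron. Cttn, cortactin, which branches and stabilises actin filaments, had 143 and 147 reads, 71.5% and 72.8% of the gene, without the 111-base exon printed above, against 31 and 28 reads of Cttn-201 with it. Its new intron was in a further 16 and 12 reads. Bin1, which bends membranes in endocytosis, had 57 and 55 reads without a 108-base coding exon, 33.0% and 47.0% of the gene, with intervals of 26.0 to 40.5% and 37.7 to 56.5% that overlapped. Ski, a corepressor of TGF-beta signalling, had 44 and 48 reads without a 123-base coding exon, and this junction was in 2 and 0 reads of other models. Gphn, gephyrin, the scaffold of inhibitory synapses, had 20 and 21 reads without a 108-base coding exon, 38.5% and 44.7% of the gene. Camk2b, the beta subunit of the calcium and calmodulin-dependent kinase, had 54 and 48 reads without the 45-base exon, 9.41% and 8.51% of the gene, well below Camk2b-209 with 424 and 405 reads. Fbxw11, a substrate receptor of the SCF ubiquitin ligase, had 23 and 23 reads without a 63-base coding exon.

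Added exons were somewhat shorter, with a median of 85 bases, and 78 of the 123 (63.4%) were a multiple of 3, against 72.6% in the Known minor models. At most 27 bases were found in 14 of the 123 added exons, 13 of them coding and 12 a multiple of 3. In the Known minor models 2 of 146 added exons were that short. Among skipped exons, 5 of 147 in the combinations and 6 of 154 in the Known minor models were that short. Pls3, plastin 3, which bundles actin, had 203 and 167 reads with its 27-base exon, 81.9% and 78.0% of the gene, against 28 and 27 of Pls3-204. Ptpra, a receptor tyrosine phosphatase, had 138 and 129 reads with its 27-base exon, 55.4% and 54.7%, against 86 and 81 of Ptpra-201. Trappc9, a subunit of a vesicle-tethering complex, had 80 and 75 reads, 71.4% and 74.3%, against 18 and 16 of Trappc9-202. In these 3 genes the added exon left the reading frame and stop codon in place. The shortest added exons were 15 bases in Arhgef10l (6 and 8 reads), 18 bases in Arhgap44 (5 and 6 reads) and 21 bases in Ddhd1 (11 and 17 reads) and Dgkb (13 and 6 reads). These 4 were named for their size after the values were seen.

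Among longer added exons, Ctbp1, a transcriptional corepressor, had 195 and 182 reads with an exon of 193 bases, 56.9% and 57.2% of the gene, against 61 and 63 of Ctbp1-201. Read from the start codon of Ctbp1-201 it met a stop after 16 codons, but the exon overlaps the coding sequence of another annotated Ctbp1 transcript. Rpn2, a subunit of the enzyme that attaches sugars to new proteins, had 123 and 89 reads with a 48-base exon, 61.5% and 60.1%. Ccdc149 had 64 and 40 reads with a 33-base exon, 91.4% and 88.9% of the gene. Agap3, a GTPase-activating protein tied to NMDA receptors, had 79 and 79 reads with a 226-base exon, and Btrc, a receptor of the SCF ubiquitin ligase, 25 and 22 with a 42-base exon. Gabra5, a GABA-A receptor subunit abundant in hippocampus, had 32 and 35 reads with a 60-base exon outside the coding sequence, 19.2% and 20.7% of the gene.

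**Figure D3:**
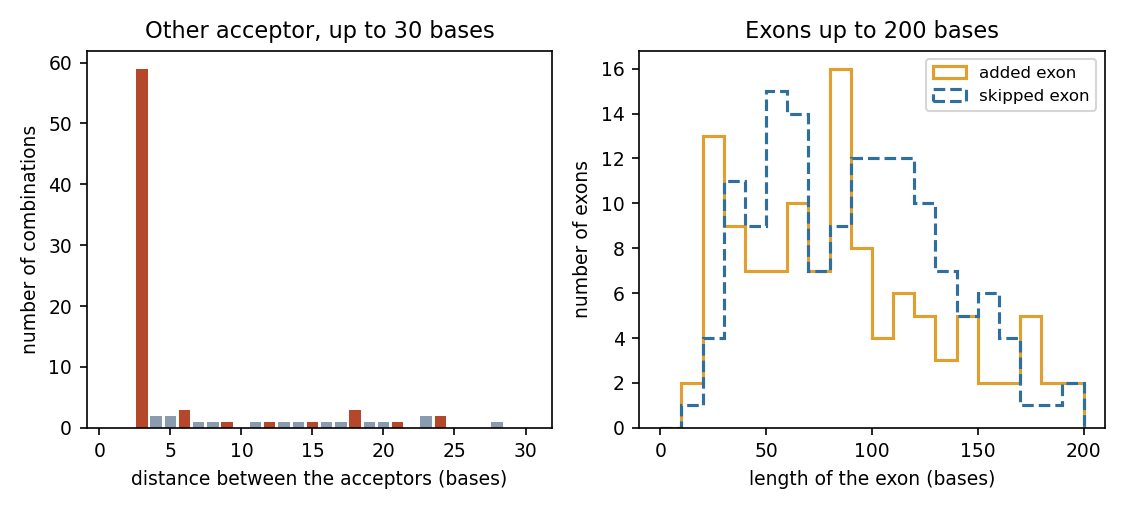
Left, number of combinations by the distance in bases between the acceptor used and that of the compared model, up to 30 bases, with multiples of 3 in red and other distances in grey; 59 of 123 lie at 3 bases. Right, number of exons by length in bases, up to 200 bases, in 10-base bins, for added exons (orange) and skipped exons (blue, dashed).

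Other acceptors were mostly close to the annotated one. In 59 of 123 the distance was 3 bases, as in 75 of 169 in the Known minor models, and 89 of the 123 (72.4%) lay a multiple of 3 away. Of the 59, 52 were in coding sequence. The combination took the acceptor that gives the longer exon in 26 and the shorter in 33. The optional bases could be read for 57 of the 59, and they were CAG in 46, TAG in 7 and AAG in 4, so all 57 ended in AG. In the Known minor models CAG was found in 56 of 75, TAG in 10, AAG in 8 and GAG in 1. An intron ends in AG in nearly all cases, so these letters are also those of the other acceptor.

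The leading case, 2010300C02Rik, had 137 and 130 reads with the CAG, 39.5% and 36.9% of the gene, against 90 and 83 reads of the model without it. Hgs, which sorts ubiquitinated receptors on endosomes, had 60 and 56 reads without the CAG, 66.7% and 65.1%, against 24 and 19 of Hgs-206 with it. Fbxo25, a receptor of an SCF ubiquitin ligase, had 66 and 44 reads with the CAG, 85.7% and 73.3%, and Dbn1, drebrin, an actin-binding protein of dendritic spines, had 51 and 38, 19.4% and 18.3%. Rbfox3, the splicing factor known as NeuN, had 77 and 73 reads with an acceptor that adds 141 coding bases, 32.8% and 32.0% of the gene, below Rbfox3-204 with 109 and 117 reads. Smdt1, a regulator of the mitochondrial calcium uniporter, had 72 and 53 reads with an acceptor 7 bases away that GENCODE M21 does not hold, 44.4% and 44.5%.

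Other donors lay further apart, with a median distance of 72 bases and 47 of 95 (49.5%) at a multiple of 3. Eno2, neuron-specific enolase, had 97 and 84 reads with a donor 188 bases away outside the coding sequence, 22.8% and 23.7%, against 254 and 193 of Eno2-201. Cops7a, a subunit of the COP9 signalosome, had 77 and 76 reads with a donor 117 bases away, 72.0% and 72.4%, against 11 and 2 of Cops7a-201. Rnf220, a ubiquitin ligase, had 79 and 90 reads with 78 fewer coding bases, 48.8% and 62.5% of the gene, and the intervals (40.9 to 56.7% and 54.1 to 70.4%) overlapped. Map7d1, a microtubule-associated protein, had 47 and 57 reads with 9 fewer coding bases. Agtpbp1, which trims glutamates from tubulin tails, had 48 and 49 reads with a donor 125 bases away outside the coding sequence.

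Retained introns had a median length of 441 bases, and 18 of 85 were a multiple of 3. Their shares were low, with a median of 10.2% over the 80 in genes with enough reads and none at 50% in both libraries. Hnrnpu, a nuclear RNA-binding protein, had 37 and 29 reads with an intron of 1855 bases, 11.1% and 11.6%. Zranb2, a splicing factor, had 30 and 25 reads with an intron of 1288 bases, 18.3% and 17.9%. Atp5b, the beta subunit of ATP synthase, had 9 and 8 reads with an intron of 411 bases, 1.26% and 1.22% beside 694 and 639 reads of Atp5b-201. In Hnrnpu, Zranb2 and Atp5b the frame then met an early stop codon, as defined below.
Gas2l1, which links actin to microtubules, had 28 and 26 reads with a 358-base intron outside the coding sequence, 36.4% and 34.7%.

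Exchanged exons were few, but the exons of a pair had the same length in Tpm3, Tmem87b and Scn2a. Tpm3, a tropomyosin that lies along actin filaments, had 136 and 125 reads with the exon shown above, 76.8% and 76.2%, against 13 and 20 of Tpm3-201 with the other exon, and 39 of the 76 bases were the same in both. Scn2a, a neuronal sodium channel whose genes are known for a pair of neonatal and adult exons, had 12 and 18 reads against 2 and 0 of Scn2a-201. Tmem87b had 23 and 28 reads against 2 and 1, with 32 of 72 bases the same. Mef2a, a transcription factor of activity-dependent genes, had 20 and 20 reads with an exon of 138 bases in place of one of 132. All 4 kept the start and stop codon of the compared model. Csnk1g2, a casein kinase, had the leading added intron, of 81 coding bases, with 97 and 117 reads (79.5% and 81.2%) against 17 and 14 of Csnk1g2-201.

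Of combinations with another first exon, all 63 whose frame could be read kept the coding sequence of the compared model, and a further 48 lacked its start codon. All 30 with further exons upstream and a readable frame kept it too. Both types share every later splice site with the compared model, so a readable frame is nearly bound to keep the coding sequence. In the Known minor models it was kept in 95 of 96 and 44 of 46. Ndrg2, an astrocyte-enriched protein, had 118 and 116 reads from another first exon, 16.7% and 18.1%, against 343 and 314 of Ndrg2-202. Clu, clusterin, a chaperone secreted by astrocytes, had 27 and 23 reads from another first exon (7.96% and 7.69%), against 287 and 255 of Clu-201. Elmo1, a regulator of RAC, had 31 and 35 reads from another first exon that lacks the start codon of Elmo1-201, 79.5% and 74.5%. Syt5, a synaptotagmin of dense-core and synaptic vesicles, had 97 and 95 reads with further exons upstream, 76.4% and 79.8%, against 18 and 17 of Syt5-201. Asphd2 had 135 and 113 reads of the same kind, 54.4% and 50.7%. Snap91, AP180, which assembles clathrin on synaptic vesicles, had 112 and 93 reads (56.0% and 55.0%), and Mical2, an actin-oxidising enzyme, 94 and 98 (59.5% and 61.2%). For these last genes the most read annotated model, Snap91-209 and Mical2-209, had only 0 and 2 reads.

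Sept3, a neuronal septin, had 154 and 125 reads with further exons downstream, 52.9% and 53.2%, against 79 and 66 of Sept3-201, and another stop codon that adds 24 coding bases. Ptov1 had 123 and 117 reads with further exons downstream and the same coding sequence, 58.9% and 64.3%. Cyhr1 had 105 and 114 reads with another last exon, 47.3% and 55.6%, against 55 and 44 of Cyhr1-203, and a coding sequence 39 bases shorter.

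Each change of a combination with several changes was often found alone as well. For 108 of the 145, every change was also the single change of another full-splice chain of the gene, and for 8 none was. No minimum of reads was set for that other chain, which could be read in a single library. Of the 145, 133 had 2 changes, and the highest number was 4. Where the reads cover both choices, their joint counts can be given. In Mbnl2, a splicing factor that binds CUG repeats, a 54-base coding exon and a 95-base coding exon were both kept in 60 of 176 reads in replicate 1 and 53 of 174 in replicate 2 and both skipped in 49 and 39. The 54-base exon was kept without the 95-base one in 21 and 31, and the 95-base exon without the 54-base one in 46 and 51. All 4 arrangements were thus read in both libraries.

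Most genes held few combinations. A single one was found in 580 genes, 2 in 118 and 3 or more in 50. Celf4, an RNA-binding protein of neurons, had the most with 10, then Klc1 with 8, Ttc3 and Tango2 with 6 each and Cpne6, Hnrnpk and Epn1 with 5 each. Genes with a combination had a median of 8 annotated spliced transcripts and 12 exons in the most read annotated model, against 5 transcripts and 8 exons in the 4167 genes without one. Their depth was also higher, with a median of 77 and 70 full-splice reads against 50 and 45, and the part of depth in these counts was not tested.

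In Celf4 the leading combination had 79 and 77 reads, 16.6% and 16.9% of the gene, beside 87 and 62 of Celf4-207, from which it differed by 30 coding bases fewer at a donor. Of the other 9, which held between 1.26% and 7.24% of the gene in either library, some had this donor with a further change. Others had acceptors 3 bases away, a donor 60 bases away, or an added exon of 85 or 79 bases outside the coding sequence. Of reads covering both donors, 19 of 444 in replicate 1 and 37 of 429 in replicate 2 had both changes. The change of 30 bases alone was in 164 and 158, the change of 60 bases alone in 47 and 57, and neither in 214 and 177.

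Klc1, kinesin light chain 1, which ties cargo to kinesin and is known for many endings of its protein, had combinations with 63 and 66, 65 and 46, 49 and 43 and 32 and 39 reads at the top, beside 143 and 133 of Klc1-202. They drew on an acceptor that removes 24 coding bases, a donor that adds 27 and an added coding exon of 51 bases. The 51-base exon was kept with the longer donor in 86 of 444 and 93 of 414 reads, kept without it in 83 and 64, left out with the longer donor in 65 and 61 and left out without it in 210 and 196.

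In Epn1, epsin 1 of clathrin coats, the 75-base coding exon of Epn1-202 was kept in 4 of 94 reads in replicate 1 and 9 of 74 in replicate 2 that covered it and the acceptor pair 3 bases apart; all 5 combinations skip it. Ttc3, a ubiquitin ligase, and Tango2 spread their reads over 6 combinations each, the best read of which held 23.5% and 24.02% of Ttc3. In Hnrnpk, an RNA-binding protein, no annotated model was read, and the 5 combinations, with 135 and 119 reads at the top (37.4% and 39.4%), each had a splice site absent from GENCODE M21.

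The reading frame was followed from the start codon of the compared annotated model for 752 combinations. It could not be read where that start codon was absent (87), where part of the sequence was in no annotated transcript (39) or where the compared model had no complete annotated frame (62), and 63 combinations were not compared, having no annotated model read in their gene (43), different genes in the tables (5) or no splice site shared with the compared model (15). The coding sequence was the same in 230 (30.6%) and the start and stop codon were kept around a changed coding sequence in 262 (34.8%). Another stop codon was found in 80 (10.6%). An early stop codon was found in 180 (23.9%). It differs from the stop codon of the compared model and lies more than 50 bases before the last junction. Stops so placed are of the kind that nonsense-mediated decay is known to act on. Combinations that kept the stop codon of the compared model were not counted as early, whatever this distance, as in Zgpat with 2309 bases. No other start codon was tried, so the early stop class can hold combinations whose frame begins elsewhere. The 1041 Known minor models read in the same way had 36.6%, 35.1%, 17.0% and 11.3% in these classes. Unlike the sorting by type, these 1041 include the shorter chains. Of them, 102 start at a later exon, 28 with an early stop codon, and 55 end at an earlier exon, 45 with another stop codon. No combination has either as its single change.

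Retained introns carried many of the early stops, in 60 of the 66 combinations of that type. Mixed changes within the gene gave one in 19 of 27 (70.4%, against 6 of 13 or 46.2% in the Known minor models). Without models whose single change was a retained intron, the share over all types was 120 of 686 (17.5%). In the Known minor models, shorter chains included, it was 98 of 1020 (9.61%). Models with several changes stayed in, and some of these also retain introns, as in Cpne6. Skipped exons gave an early stop in 24 of 114 (21.1%, against 7.20% in the Known minor models), several changes in 36 of 104 (34.6%, against 18.6%) and added exons in 14 of 106 (13.2%, against 10.5%). Other donors gave one in 15 of 92 (16.3%, against 14.0%) and other acceptors in 12 of 119 (10.1%, against 6.29%).

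**Figure D4:**
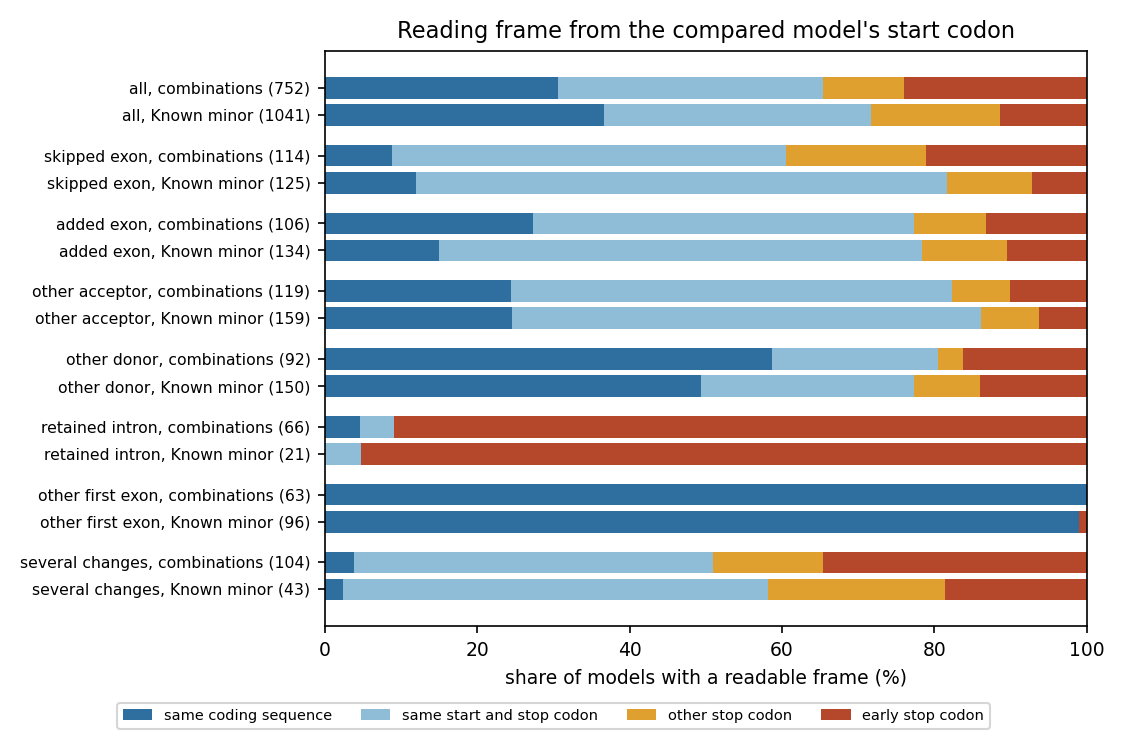
Share of models (%) by the reading frame from the start codon of the compared annotated model, over all types and for the types of change drawn, for unannotated combinations and Known minor models. Retained introns met an early stop in 90.9% of combinations and 95.2% of Known minor models, against 23.9% and 11.3% over all types.

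Genes with a combination were counted over gene lists, keeping genes of 20 or more full-splice reads per library, beside 652 of 4819 genes (13.5%) over all such genes. Splicing factors and other RNA-binding proteins had a combination in 19 of 51 genes (37.3%) and 43 combinations in all. Genes of postsynaptic receptors and scaffolds had one in 10 of 28 (35.7%), of cytoskeleton and transport in 24 of 68 (35.3%), of presynaptic release in 13 of 45 (28.9%) and of calcium and calmodulin signalling in 7 of 38 (18.4%). Ion channels had one in 2 of 19 (10.5%), ubiquitin, autophagy and proteasome genes in 7 of 71 (9.86%) and mitochondrial respiration in 5 of 73 (6.85%). Astrocyte markers had one in 5 of 19, oligodendrocyte and myelin markers in 1 of 12 (Mag, a myelin-associated glycoprotein, with 21 and 12 reads), polyamine and antizyme genes in 2 of 9, and microglia and endothelial markers in 0 of 9 and 0 of 4. The genes of these lists differ in depth and in number of exons, and the part of either was not tested.

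The libraries gave close shares for the same combination, with a median absolute difference of 2.61 percentage points over the 902. The 95% intervals overlapped between the libraries for all 902. No such count over all isoforms is given here. Most combinations had few reads and so wide intervals, and nothing is read from this overlap. In a two-sided Fisher's exact test of each isoform, replicate 2 against replicate 1, with Benjamini-Hochberg adjustment over all 7285 isoforms tested, 22 (0.302%) were called at an adjusted p under 0.05. Of the combinations, 0 of 902 (0%) were called and 19 had an unadjusted p under 0.05, 13 of them higher in replicate 2. These 19 are 2.11% of the combinations, and over all isoforms tested 313 (4.30%) had such a p. Of the other isoforms, 22 of 6383 (0.345%) were called. The combinations were chosen by having reads in both libraries, so nothing is read from their count.

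The smallest p among the combinations was that of Gprasp1, which sorts G protein-coupled receptors to lysosomes, with 17 reads in replicate 2 and 9 in replicate 1, 32.1% against 11.1% of the gene (Fisher's exact test, adjusted p = 0.428). Ywhaz, a 14-3-3 protein, had 7 reads in replicate 2 and 28 in replicate 1 (2.23% against 6.53%, Fisher's exact test, adjusted p = 0.683). Neither passed the threshold.

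**Figure D5:**
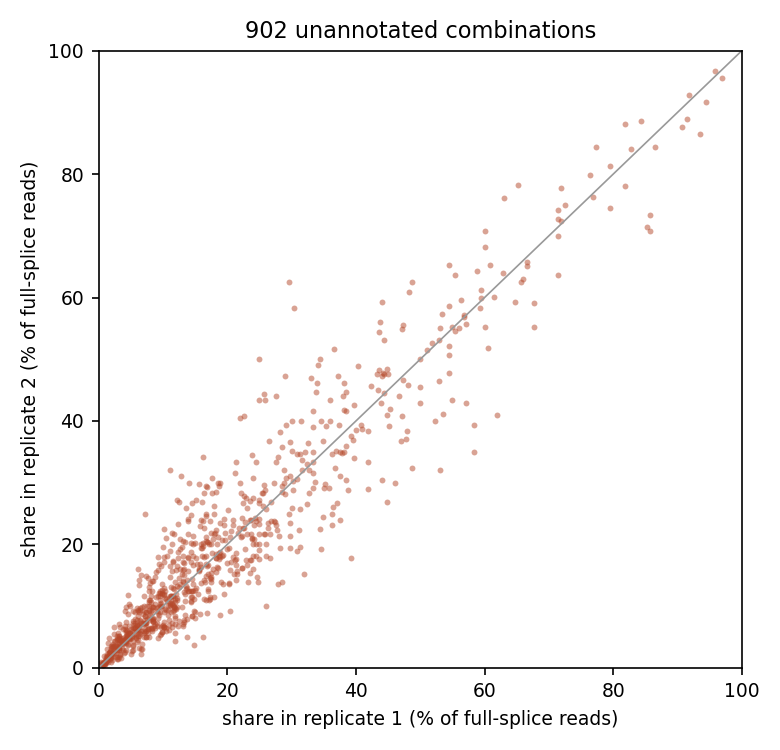
Share of the gene's full-splice reads (%) in replicate 2 (vertical axis) against replicate 1 (horizontal axis) for the 902 combinations in genes of 20 or more full-splice reads per library, 1 point each. The points lie along the line of equal shares, with a median absolute difference of 2.61 percentage points.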

How the data were processed

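Long-read RNA-seq of mouse hippocampus was deposited as a table of read counts and a GTF of transcript models per library. The authors made the counts with TALON on mm10 and GENCODE M21, per the file headers and the deposited description, as whole reads per model with no normalization; the sources used here do not give the aligner. Models of the libraries were joined on chromosome, strand and exact intron chain, and introns, frames and sequences were taken from the GENCODE M21 annotation and transcripts. Shares have exact 95% Clopper-Pearson intervals. Isoforms with at least 10 reads over both libraries, in genes of 20 or more full-splice reads per library, were compared with Fisher's exact test and Benjamini-Hochberg adjustment, after a test on simulated data. Reads carry no molecular identifiers known here and may not be independent molecules. Intervals and p-values cover counting error only, and may be too narrow and too small. Each test sets a single library against the other, so no spread between libraries is estimated. Python 3.11.15, pandas 2.3.3, numpy 2.4.6, scipy 1.17.1 and matplotlib 3.10.9 were used. Combinations named are the 6 with the most reads of each type, the 15 with the most reads, the 10 with the highest share, up to 3 per gene list, those of the 5 genes with the most combinations and the 5 with the smallest p. The members and the gene lists were chosen with earlier results of these data known. A few items that meet the naming rule are not reported here.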

Additional observations from a re-analysis of the deposited data

Results flagged for a closer look

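Outside the combinations described above, 91 chains with at least 5 reads in each library were classed NIC in the table of one library and NNC in that of the other, in 81 genes. They were looked at because their differing class kept them out of the combinations, although their reads are among the full-splice reads. They held 2728 reads in replicate 1 and 2552 in replicate 2, and all 91 have a splice site absent from GENCODE M21. The best read lay in Nrgn, neurogranin, a calmodulin-binding protein of neurons, with 1343 and 1220 reads, then in Rph3a, a synaptic vesicle protein, with 65 and 64.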

How the results depend on the processing

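With 3 reads asked in each library the number of combinations was 1769, with 10 reads 435, and with 5 reads in 1 library alone it lay between 1460 and 1578, against 1003. Without combinations that differ only by sites at most 6 bases apart it was 931, and without those with an unannotated site, an alternative chosen after seeing the data, 946. The share with a single change, 83.2%, was 89.0% against the closest read annotated model, 85.8% with 10 reads, 90.5% against the closest annotated transcript (chosen after seeing the data) and between 79.6% and 80.9% with 1 library. The median share of the gene, 14.7%, was 10.9% of all reads of the gene, 16.6% in genes with at least 10 full-splice reads, 10.1% with at least 50, and between 14.0% and 14.8% with 1 library. Isoforms called between the libraries numbered 17 with at least 20 reads and 20 over all reads of the gene, with 0 combinations in both. The cause of these shifts was not tested. No paired analysis was possible because there is 1 group. At this depth 194 combinations had exactly 5 reads in a library, the fewest that the choice of members allows.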
